A study of Mus musculus with 36 samples.

Results

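The 10 genes described here encode subunits of activator protein 1 (AP-1), though not all of them: Fos, Fosb, Fosl1, Fosl2, Jun, Junb, Jund, Batf, Batf3 and Atf3. They were chosen by name, as members of this family, and each has 1 row among the 40354 genes of the count tables. All 10 passed the low-count filter in the fits over 12, 24 and 36 libraries. Their transcripts were followed by RNA-seq through B cell to macrophage transdifferentiation (BMT). B cells from the bone marrow of C57BL/6J mice, whose age is not given in the sources used here, were infected with a retrovirus that carries C/EBPα fused to the estrogen receptor and a human CD4 tag for sorting. The C/EBPα was wild-type or had arginine 35 replaced by alanine (R35A) or by lysine (R35K). All cells were seeded on inactivated mouse embryonic fibroblasts (MEFs), and 100 nM estradiol moved the fusion protein into the nucleus. By the paper's methods, the medium for BMT also held interleukins, stem cell factor and other growth factors. The methods do not say whether the 0 hr cells received this medium. Cells were collected before induction (0 hr post induction, hpi), after 1, 3 and 6 hr, and after 18 and 120 hr. There are 18 groups with 2 replicates in each, which makes 36 libraries. Every group therefore carried a fusion virus and had been grown with feeders, which were depleted by a short adherence step at collection. The fusion protein is made from a retrovirus and not from the cell's own gene.

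AP-1 is not a single protein but a set of dimers. A Jun protein pairs with another Jun, a Fos, an Atf or a Batf protein through a leucine zipper, and the pair binds DNA through the adjoining basic region. Fos proteins cannot pair with each other and depend on a Jun partner. Many of these genes are immediate early genes, transcribed within minutes of a growth factor, cytokine or stress signal without new protein synthesis. In macrophages AP-1 acts together with PU.1 and C/EBP factors at enhancers.

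Levels are given as CPM, counts scaled to the size of each library with factors set over all 36 libraries, with the value of each of the 2 replicates. A change was called when it reached 1.5-fold in either direction and its p in edgeR, adjusted over all genes tested by the Benjamini-Hochberg method, was 0.05 or less. Changes are log2 values with the standard error (SE) of the fit. The number of replicates limits the precision, and the labels do not say whether the replicates come from separate mice. In bulk RNA, more cells of a type and more RNA per cell cannot be told apart.

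The libraries held 13044456 to 23131776 counts. The 6 macrophage markers summed to 55.4 to 62.6 CPM at 0 hpi and to 16790 to 28500 CPM at 120 hpi. The 0 hpi libraries stood apart in feeder RNA, although the labels give 1 collection protocol for all libraries. Every change from 0 hpi rests on these libraries, and the part of this difference in those changes was not tested. The 8 feeder fibroblast markers (collagens and other matrix genes) summed to 1795 to 1946 CPM at 0 hpi in all 3 constructs. By 1 hpi the sum was 3688 to 3700 CPM in wild-type cells, 3921 to 3932 CPM in R35A cells and 3076 to 3160 CPM in R35K cells. It was highest in wild-type cells at 18 hpi, at 4525 to 4621 CPM, and lowest at 120 hpi, at 152 to 180 CPM in wild-type, 556 to 569 CPM in R35A and 399 to 470 CPM in R35K cells. Of the 8 markers, 1 was at 0 in both replicates at 120 hpi in each construct. The 8 granulocyte markers summed to 48.2 to 61.9 CPM at 0 hpi and to 2.04 to 21.4 CPM later. The 6 mast cell and basophil markers reached at most 33.2 CPM, and the 6 T and NK cell markers at most 1.42 CPM. Comparisons of constructs at the same timepoint do not use the 0 hpi libraries.

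The promoters of Fos, Jun and Atf3 are shown because the search found a cAMP response element core or its Jun variant in them. The core was also in the window of Batf, a gene of low counts, which is not printed. Over the 18 groups, the mean log2 CPM of the 3 printed genes correlated with r = 0.959 (Fos and Jun), r = 0.98 (Fos and Atf3) and r = 0.967 (Jun and Atf3), a description over groups that share the time course. Fosb correlated as closely, with r = 0.98 to Fos, 0.98 to Jun and 0.975 to Atf3, and its window held none of the motifs searched. The windows hold the 250 bases before the RefSeq start in GRCm38.p6, on the gene's strand, and capitals mark the motifs found.
Fos, chr12:85473640-85473889, plus strand: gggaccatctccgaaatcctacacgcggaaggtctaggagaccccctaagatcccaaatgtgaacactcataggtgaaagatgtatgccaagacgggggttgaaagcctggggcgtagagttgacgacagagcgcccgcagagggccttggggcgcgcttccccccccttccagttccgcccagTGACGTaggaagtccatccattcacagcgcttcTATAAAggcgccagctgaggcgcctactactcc
Jun, chr4:95052223-95052472, minus strand: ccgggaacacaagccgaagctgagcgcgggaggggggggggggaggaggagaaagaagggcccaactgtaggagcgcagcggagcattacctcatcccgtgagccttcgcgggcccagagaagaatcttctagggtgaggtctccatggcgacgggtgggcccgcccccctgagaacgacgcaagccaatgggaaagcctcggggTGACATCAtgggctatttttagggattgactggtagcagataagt
Atf3, chr1:191183334-191183583, minus strand: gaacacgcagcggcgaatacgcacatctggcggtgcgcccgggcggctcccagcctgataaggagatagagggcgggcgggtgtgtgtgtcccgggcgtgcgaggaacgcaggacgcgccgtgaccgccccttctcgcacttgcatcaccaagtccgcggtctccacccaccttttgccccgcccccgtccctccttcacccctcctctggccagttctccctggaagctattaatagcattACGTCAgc
The capitals in the Fos window are TGACGT, the core of a cAMP response element, at −66 to −61 from the start, and the TATA box TATAAA at −33 to −28. The Jun window holds TGACATCA, a variant element named for this promoter, at −45 to −38. The Atf3 window holds ACGTCA, the core element on the other strand, at −8 to −3. RefSeq promoters were found for 9 of the 10 genes, all but Fosl1. The core element was in 3 of these 9 windows (Fos, Batf and Atf3) and in 6.47% of all 32851 windows of this length, and the Jun variant was in 1 of 9 and in 2.93% of all. The AP-1 site TGANTCA (6.75% of all windows), the full element TGACGTCA (1.55%), the PU.1 sequence GAGGAAGT (2.44%) and a serum response element (0.0609%) were in none of the 9. The C/EBP sequence TTGCNNAA was in 1 of 9, Jund, against 9.56% of all, and TATAAA in 1 of 9, Fos, against 12.4%. The starts are those of RefSeq and can differ from those of the GENCODE gene models. The Jund window, chr8:70697489-70697738, lies apart from the gene model, which begins at 70698949. The printed Atf3 window lies inside its gene model, chr1:191170296-191218039. Both strands were searched, the full element contains the core, and a match is only a match of letters. The serum response element was searched as 1 exact sequence, which was in 0.0609% of all windows. Its absence from the 9 windows therefore says nothing about other forms of the element or about sites outside the 250 bases.

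In wild-type cells, the early rise was limited to few members, and all members but Fosl1 had their highest mean level at 120 hpi. At 1 hpi, 4 of 10 members were called, all higher (10.7% of all genes were called higher). They were Fos, Fosl2, Junb and Batf3. At 3 and 6 hpi 3 of 10 were called higher (12% and 15.1% of all genes), at 18 hpi 6 of 10 (23.9%), and at 120 hpi 8 of 10 (23.1%), with 1 member, Fosl1, lower (40.2%). Jund was the member not called at any timepoint. The median change of the members was 0.28 at 1 hpi and 2.72 at 120 hpi, and that of all genes tested was −0.01 and −0.36.

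**Figure D1:**
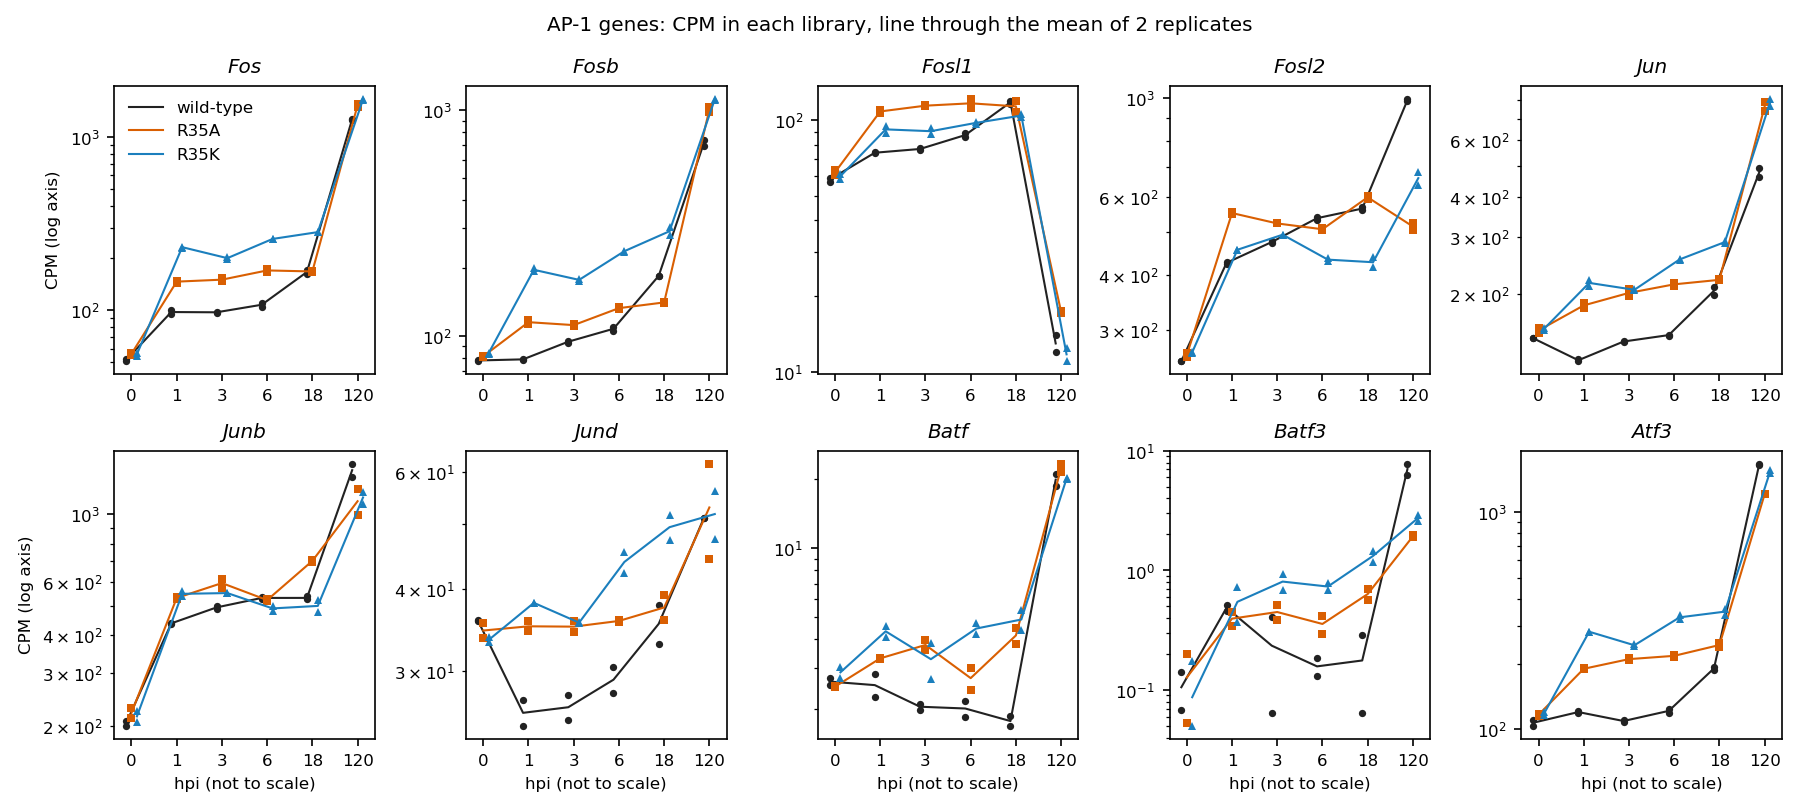
CPM of each AP-1 gene in each library (log axis; a library with 0 counts is drawn at 0.05 CPM) against hpi, for wild-type (black circles), R35A (orange squares) and R35K (blue triangles) cells, with lines through the mean of 2 replicates. The constructs start at nearly the same level at 0 hpi, Fos, Fosb, Jun and Atf3 lie highest in R35K cells at 1 hpi, and Fosl1 alone is lower at 120 hpi than at 0 hpi.

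Fos, the prototype partner of the Jun proteins, had the largest log2 change at 120 hpi among the members other than Batf3. In wild-type cells it was at 52.3 and 50.8 CPM at 0 hpi, 99.8 and 95.3 CPM at 1 hpi, 170 and 162 CPM at 18 hpi and 1274 and 1262 CPM at 120 hpi. In R35A cells it was at 56.6 and 55.4 CPM at 0 hpi, 144 and 148 CPM at 1 hpi, 168 and 166 CPM at 18 hpi and 1557 and 1501 CPM at 120 hpi. In R35K cells it was at 56.7 and 54.6 CPM at 0 hpi, 230 and 233 CPM at 1 hpi, 282 and 283 CPM at 18 hpi and 1640 and 1657 CPM at 120 hpi. The replicates lay close together, and at 1 hpi the constructs did not overlap, in the order wild-type, R35A, R35K. The change at 1 hpi was 0.94 ± 0.05 in wild-type (adjusted p = 6.59e-24), 1.36 ± 0.04 in R35A (adjusted p = 1.64e-32) and 2.002 ± 0.04 in R35K cells (adjusted p = 6.63e-30). By 120 hpi the changes were nearer to each other, at 4.49 ± 0.04, 4.65 ± 0.04 and 4.79 ± 0.04.

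Fosb, a Fos protein known from immediate early responses, was called at 1 hpi in R35K cells and not in wild-type or R35A cells. It was at 77.4 and 78.5 CPM at 0 hpi and 79.4 and 78.3 CPM at 1 hpi in wild-type cells, a change of 0.04 ± 0.04. In R35A cells it went from 81.8 and 80.9 CPM to 118 and 112 CPM, a change of 0.48 ± 0.04 that passed the p but not the fold threshold. In R35K cells it went from 84.5 and 83.7 CPM to 199 and 194 CPM, a change of 1.17 ± 0.04 (adjusted p = 9.3e-23). The 3 constructs did not overlap at 1 hpi. At 120 hpi Fosb was at 735 and 698 CPM in wild-type, 1029 and 984 CPM in R35A and 1113 and 1120 CPM in R35K cells.

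Atf3, a stress-inducible member that restrains cytokine genes in macrophages, was at 104 and 111 CPM at 0 hpi, 118 and 122 CPM at 1 hpi and 1658 and 1673 CPM at 120 hpi in wild-type cells. In R35A cells it was at 115 and 118 CPM, 189 and 191 CPM, and 1210 and 1218 CPM at these timepoints. In R35K cells it was at 116 and 120 CPM, 282 and 282 CPM, and 1565 and 1517 CPM. At 1 hpi the wild-type level had moved by 0.19 ± 0.04, under the fold threshold, while Atf3 rose by 0.68 ± 0.04 in R35A (adjusted p = 5.83e-22) and by 1.204 ± 0.04 in R35K cells (adjusted p = 1.71e-23).

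Jun, the founding partner, was below its starting level at 1 hpi in wild-type cells, at 124 and 125 CPM against 146 and 145 CPM at 0 hpi, although the change of −0.21 ± 0.04 was under the fold threshold. It was at 180 and 188 CPM in R35A and at 221 and 211 CPM in R35K cells at 1 hpi. At 120 hpi it had risen to 492 and 460 CPM in wild-type cells, 788 and 738 CPM in R35A cells and 804 and 766 CPM in R35K cells. The wild-type libraries lay below those of both mutants at 1 and at 120 hpi.

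Junb, a Jun protein with weaker activation than Jun on simple AP-1 sites, rose in every construct by 1 hpi. It went from 208 and 200 CPM to 434 and 439 CPM in wild-type cells (1.12 ± 0.05, adjusted p = 1.23e-25), from 213 and 229 CPM to 526 and 533 CPM in R35A cells (1.23 ± 0.05) and from 207 and 224 CPM to 557 and 536 CPM in R35K cells (1.29 ± 0.04). The differences between constructs in this change were not called. At 120 hpi the replicates spread more, at 1467 and 1330 CPM in wild-type, 1215 and 996 CPM in R35A and 1189 and 1085 CPM in R35K cells.

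Fosl2 (Fra-2), a Fos protein without the strong activation domain of Fos, separated the constructs at the end of the time course. It was at 256 and 256 CPM at 0 hpi, 560 and 568 CPM at 18 hpi and 995 and 984 CPM at 120 hpi in wild-type cells. In R35A cells it was at 266 and 261 CPM, 602 and 593 CPM, and 523 and 505 CPM. In R35K cells it was at 267 and 269 CPM, 416 and 438 CPM, and 638 and 683 CPM. From 18 to 120 hpi the change was 0.69 ± 0.03 in wild-type cells (adjusted p = 4.39e-26), −0.32 ± 0.03 in R35A cells, under the fold threshold, and 0.57 ± 0.04 in R35K cells, also under it. With DESeq2's size factors the R35K change was 0.63 and was called, as it was with all 36 libraries in 1 fit (0.63).

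Jund, which in many cells is expressed without stimulation, had no called change from 0 hpi. It was at 35.7 and 35.9 CPM at 0 hpi, 27.1 and 24.8 CPM at 1 hpi and 51.1 and 51.1 CPM at 120 hpi in wild-type cells. Its values at 1 hpi were 34.5 and 35.7 CPM in R35A cells and 38.0 and 38.1 CPM in R35K cells. None of its 15 changes from 0 hpi was called, and they ran from −0.44 ± 0.09 to 0.53 ± 0.07. With all 36 libraries in 1 fit, the change at 120 hpi was called in R35A cells, at 0.61, and in R35K cells, at 0.63, as it was with DESeq2 (0.62 and 0.67). It was also called without replicate 2 at 120 hpi in R35A cells (0.83) and in R35K cells (0.73). An antisense gene, Gm11175, covers 52.6% of the exon bases of Jund, and the strand setting of the counts is not given in the sources used here, so reads of the pair cannot be told apart. The same limit touches 7.3% of the exon bases of Jun (Junos) and 7.5% of those of Junb (Prdx2).

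Batf and Batf3, small members without an activation domain that partner Jun proteins in lymphocytes and dendritic cells, had the lowest counts of the 10 at 0 hpi. Batf was at 37 and 38 counts at 0 hpi and 239 and 195 counts at 120 hpi in wild-type cells, which is 2.54 and 2.71 CPM and 21.1 and 18.6 CPM (2.79 ± 0.15, adjusted p = 2.25e-23). It was at 23.3 and 21.4 CPM in R35A and 20.0 and 20.2 CPM in R35K cells at 120 hpi. The R35A replicates lay above the others, and the wild-type replicates spanned those of R35K cells. The call in R35K cells at 18 hpi (0.73 ± 0.19) was lost without replicate 1 at 18 hpi (0.58). Batf3 had 1 and 2 counts in wild-type, 3 and 1 in R35A and 3 and 0 in R35K cells at 0 hpi, all at or under the floor of 3 counts per library, which covers counting error only. Its levels at 120 hpi were 88 and 66 counts in wild-type, 23 and 25 in R35A and 35 and 32 in R35K cells, or at least 33.6-fold, 10.7-fold and 15.2-fold higher than the floor. Its early calls rest on few counts. The call at 1 hpi in wild-type cells, with 7 and 9 counts, was lost without replicate 1 at 0 hpi (adjusted p = 0.127) or replicate 2 at 1 hpi (adjusted p = 0.0691), and that in R35A cells (adjusted p = 0.0451) was lost with the replicate number as a block (adjusted p = 0.0513) and with DESeq2 (adjusted p = 0.0688).

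**Figure D2:**
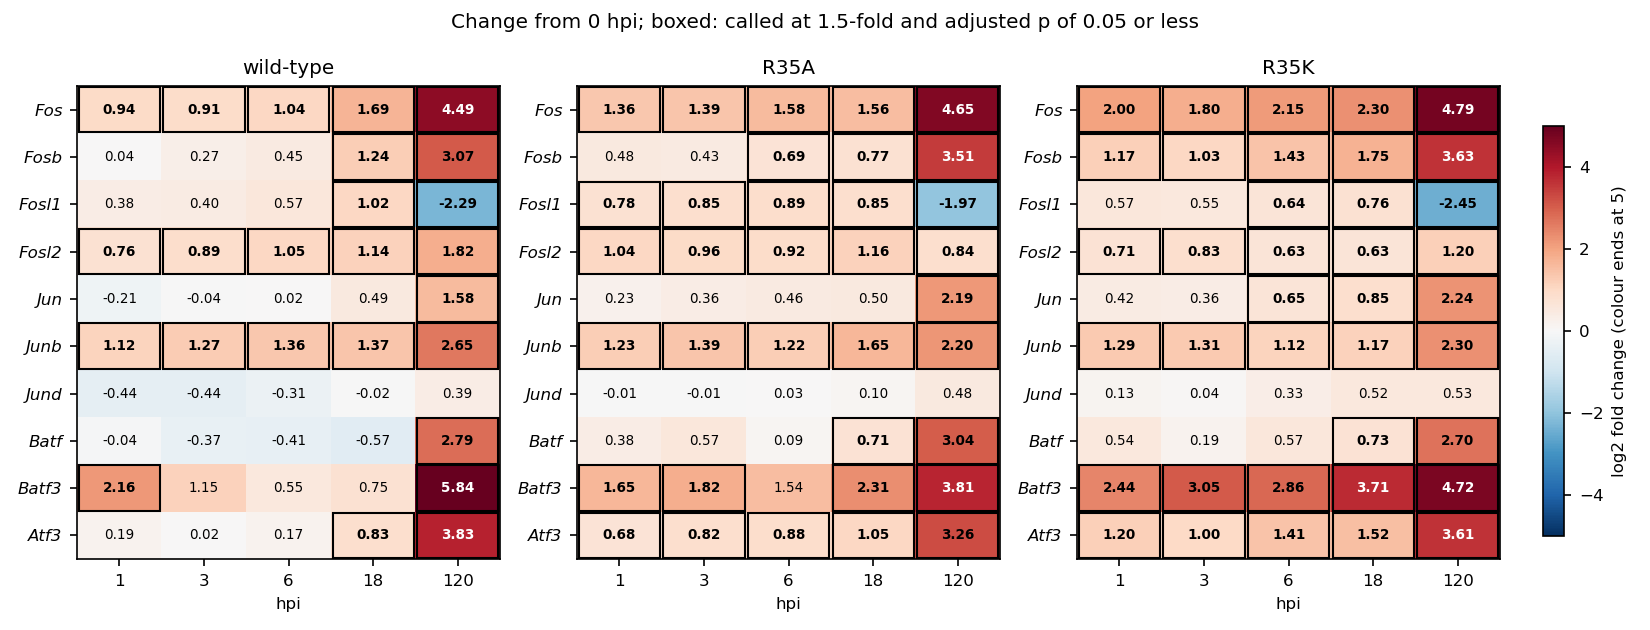
Log2 change of each AP-1 gene from 0 hpi at each later timepoint, in wild-type, R35A and R35K cells, as a colour that ends at 5 and as a number. Boxed bold values were called; Fos, Fosl2 and Junb are boxed in every column of every construct, and Fosl1 alone turns from red to blue at 120 hpi. Batf3 values are fitted against a level at the floor.

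With the mutants, more members were called higher at 1 hpi than in wild-type cells, and so were more of all genes. The difference from wild-type cells in the change at 1 hpi was called for 0 of 10 members in R35A cells (14% of all genes). In R35K cells it was called for 5 of 10 (11.9%). In R35A cells, 6 of 10 members were called higher at 1 hpi (18.3% of all genes). The count stayed at 6 through 3 hpi (17.9%) and 6 hpi (18.5%). It was 8 at 18 hpi (21%) and 8 at 120 hpi (24.2%), when Fosl1 was lower (39%). In R35K cells, 6 of 10 were called higher at 1 hpi (15.5%) and 6 at 3 hpi (15.9%). By 6 hpi there were 8 (16.3%), by 18 hpi 9 (18.4%) and by 120 hpi 8 (25.4%), when Fosl1 was again lower (38.5%). At 1 hpi the called genes were Fos, Fosl1, Fosl2, Junb, Batf3 and Atf3 in R35A cells and Fos, Fosb, Fosl2, Junb, Batf3 and Atf3 in R35K cells. These counts share 1 pair of 0 hpi libraries within a construct. In R35A cells without replicate 2 at 0 hpi, Batf3 was no longer called at 1 hpi (adjusted p = 0.368), 3 hpi (adjusted p = 0.273) or 18 hpi (adjusted p = 0.0722). Its call at 1 hpi was also lost without replicate 1 (adjusted p = 0.169) or 2 (adjusted p = 0.0573) of that timepoint, and its call at 3 hpi without replicate 2 (adjusted p = 0.128). In R35K cells the call at 1 hpi was lost without replicate 2 at 0 hpi (adjusted p = 0.0939) or replicate 1 at 1 hpi (adjusted p = 0.0956).

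Neighbouring timepoints after 1 hpi were compared next. From 1 to 3 hpi edgeR called no member, where 1.04% of all genes were called in wild-type, 0.553% in R35A and 0.347% in R35K cells. From 3 to 6 hpi it again called none, where 1.04%, 0.177% and 1.19% of all genes were called. In each of these 6 tests, 4 to 9 of 10 members had an unadjusted p under 0.05, none of them with a 1.5-fold change, and DESeq2 called 0. From 6 to 18 hpi 3 of 10 were called higher in wild-type cells (3.28% of all genes), namely Fos, Fosb and Atf3. In R35A cells 1 was called higher (1.52%), Batf, and in R35K cells none (1.12%). In this R35K test 7 members had an unadjusted p under 0.05, 1 of them with a 1.5-fold change, and DESeq2 called 0. The Batf call was lost without replicate 2 at 6 hpi (adjusted p = 0.207) or replicate 1 at 18 hpi (adjusted p = 0.108). From 18 to 120 hpi 8 of 10 were called higher in wild-type cells (27.5%). The mutants had 6 (R35A, 24.5%) and 7 (R35K, 24.7%), and Fosl1 fell in all 3 (33%, 29.4% and 28.5% called lower). The rise of Fos in this last interval was 2.81 ± 0.04, 3.09 ± 0.04 and 2.49 ± 0.04.

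Compared directly at each timepoint, R35A and wild-type cells gave 0 calls among the members at 0 hpi in edgeR and in DESeq2, where 0% of all genes were called, and 4 members had an unadjusted p under 0.05 without a 1.5-fold difference. At 1 hpi 1 of 10 was called higher in R35A cells (8.51% of all genes), Atf3, at 0.62 ± 0.04 (adjusted p = 6.04e-20). At 3 hpi Fos, Batf and Atf3 were higher (7.95%), at 6 hpi Fos and Atf3 (6.2%), and at 18 hpi Batf and Batf3 (6.9%). At 120 hpi Jun was higher (12.4%), at 0.69 ± 0.04, and Fosl2 and Batf3 were lower (6.38%), at −0.94 ± 0.03 and −1.86 ± 0.25. The difference in Fos at 3 hpi was 0.60 ± 0.04, and 0.58 without R35A replicate 2 at 3 hpi, and that in Batf3 at 18 hpi was lost with DESeq2 (adjusted p = 0.06), without wild-type replicate 1 (adjusted p = 0.259) and without R35A replicate 1 (adjusted p = 0.108). The feeder marker sum was 3921 to 3932 CPM in R35A and 3688 to 3700 CPM in wild-type cells at 1 hpi. It was lower in R35A cells at 3, 6 and 18 hpi, at 3262 to 3497 CPM against 4220 to 4621 CPM.

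The change from 0 hpi was also compared between constructs, each against its own 0 hpi libraries. R35A against wild-type cells gave no call in edgeR at 1 hpi (14% of all genes were called) and 2 calls at 3 hpi (13%). There was 1 call at 6 hpi (10.3%), another 1 at 18 hpi (8.36%), and 120 hpi gave 2 (14.5%). These were Atf3 at 3 hpi (0.80 ± 0.06, adjusted p = 2.87e-17) and 6 hpi (0.72 ± 0.05), Batf at 3 hpi (0.94 ± 0.29, adjusted p = 0.0126) and 18 hpi (1.28 ± 0.29, adjusted p = 0.000659), and Fosl2 (−0.99 ± 0.05) and Jun (0.60 ± 0.05) at 120 hpi. At 1 hpi all members but Junb, Batf and Batf3 passed the adjusted p and missed the fold, with differences of 0.28 to 0.49, and DESeq2 called 0 there. The Atf3 difference at 120 hpi was −0.58 ± 0.05, opposite in sign to those at 3 and 6 hpi and under the fold threshold, and it was called lower in R35A cells with DESeq2's size factors (−0.60) or when only the compared groups were fitted (−0.65). The Jun difference at 120 hpi dropped under the fold threshold when DESeq2's size factors were used (0.58) or the compared groups were fitted alone (0.53). It was also under it without wild-type replicate 2 at 120 hpi (0.55), R35A replicate 1 at 0 hpi (0.57) or R35A replicate 1 at 120 hpi (0.55). The Batf difference at 3 hpi was lost without wild-type replicate 2 at 0 hpi (adjusted p = 0.0522) or R35A replicate 1 at 3 hpi (adjusted p = 0.0512).

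R35K against wild-type cells gave 5 calls at 1 hpi (11.9% of all genes) and 3 at 3 hpi (10%). There were 6 at 6 hpi (12.2%), then 3 at 18 hpi (13.3%), and 120 hpi gave 2 (10.1%). At 1 hpi they were Fosb (1.21 ± 0.06, adjusted p = 4.54e-24), Fos (1.135 ± 0.06, adjusted p = 4.57e-23), Atf3 (1.09 ± 0.06, adjusted p = 1.54e-23), Jun (0.70 ± 0.06, adjusted p = 1.94e-15) and Jund (0.65 ± 0.13, adjusted p = 3.06e-05), all larger in R35K cells. The same 5 and Batf were called at 6 hpi. The Jund difference was under the fold threshold without wild-type replicate 2 at 1 hpi (0.58), and at 6 hpi without wild-type replicate 1 (0.58). The Fos difference at 18 hpi was 0.65 ± 0.06, and 0.55 with DESeq2's size factors. At 120 hpi Jun was higher (0.63 ± 0.05, and 0.58 without wild-type replicate 2) and Fosl2 lower (−0.65 ± 0.05). The R35K libraries have tables of their own, so construct and table cannot be told apart. The feeder marker sum at 1 to 18 hpi was 2504 to 3160 CPM in R35K cells, below the 3688 to 4621 CPM of wild-type cells. The macrophage marker sum at 1 hpi was 806 to 818 CPM in wild-type, 3599 to 3612 CPM in R35A and 7615 to 7754 CPM in R35K cells. The part of either marker group in these differences was not tested.

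R35K against R35A cells gave calls for Fos and Fosb alone among the 10. There were 2 at 1 hpi (5.83% of all genes) and 1 at 3 hpi (3.02%). The 6 hpi groups gave 2 (5.89%), those of 18 hpi 2 (3.44%) and those of 120 hpi none (1.61%). Fosb differed by 0.72 ± 0.06 at 1 hpi (adjusted p = 4.42e-15), 0.62 ± 0.06 at 3 hpi, 0.79 ± 0.06 at 6 hpi and 1.00 ± 0.06 at 18 hpi (adjusted p = 4.1e-20). Fos differed by 0.67 ± 0.06 at 1 hpi (adjusted p = 4.41e-14), 0.61 ± 0.06 at 6 hpi and 0.76 ± 0.06 at 18 hpi (adjusted p = 8.27e-16). Atf3 missed the fold threshold, with 0.55 ± 0.05 at 1 hpi and 0.57 ± 0.05 at 6 hpi. With DESeq2's size factors the Fosb difference at 3 hpi (0.58) and the Fos difference at 6 hpi (0.55) were under the threshold. At 120 hpi Fos differed by 0.12 ± 0.05 and Fosb by 0.10 ± 0.05, with adjusted p of 0.178 and 0.253 in edgeR. At that timepoint 4 members had an unadjusted p under 0.05 and DESeq2 called 0.

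**Figure D3:**
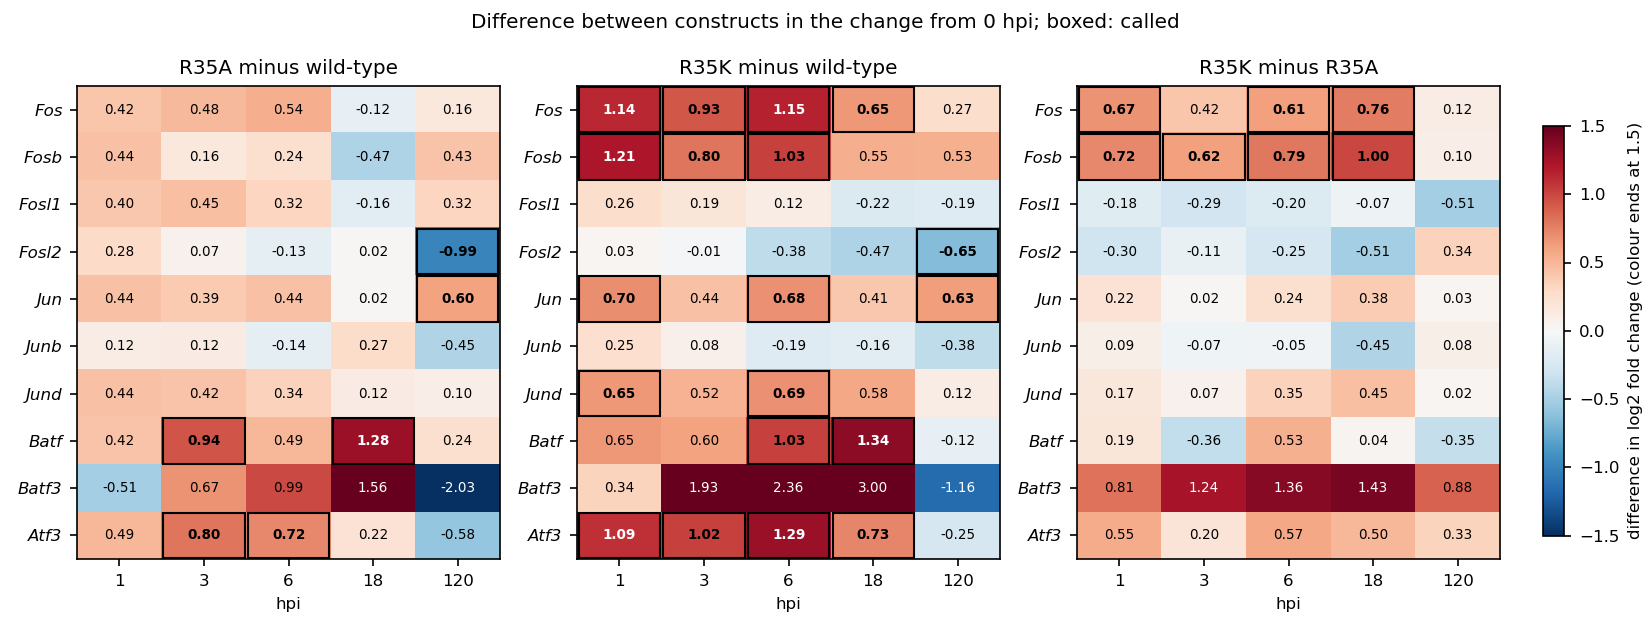
Difference between constructs in the log2 change from 0 hpi of each AP-1 gene at each timepoint, as a colour that ends at 1.5 and as a number, with called values boxed. R35K minus wild-type has the most boxes at 1 and 6 hpi, R35K minus R35A is boxed for Fos and Fosb only, and Fosl2 is negative and boxed at 120 hpi in both mutants against wild-type.

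Levels of different genes were compared per kb of exon. Junb, at 88.7 ± 2.43 CPM per kb (SD, n = 2), was the highest member in wild-type cells at 0 hpi, with 29.9% of the summed level of the 10 genes. Atf3 followed with 16.7% and Jun with 15.4%, neighbours at 49.7 ± 2.37 and 45.6 ± 0.03 CPM per kb. At 1 hpi Junb held 43.4% in wild-type, 39% in R35A and 34.7% in R35K cells. At 120 hpi the order was Atf3 (33%), Junb (25.9%) and Fos (23%) in wild-type cells, Fos (29.5%), Atf3 (25.6%) and Junb (21.7%) in R35A cells, and Atf3 (29.1%), Fos (28.5%) and Junb (20.1%) in R35K cells. In R35K cells Atf3 and Fos, at 715 ± 15.8 and 701 ± 4.85 CPM per kb, differed by less than 1 SD of Atf3. The summed level of the 10 genes per kb went from 297 ± 0.50 to 2342 ± 55.7 CPM in wild-type, from 316 ± 7.79 to 2205 ± 107 CPM in R35A and from 314 ± 7.15 to 2457 ± 50.7 CPM in R35K cells between 0 and 120 hpi. At 1 hpi it was 437 ± 0.76, 591 ± 4.92 and 684 ± 10.9 CPM per kb.

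**Figure D4:**
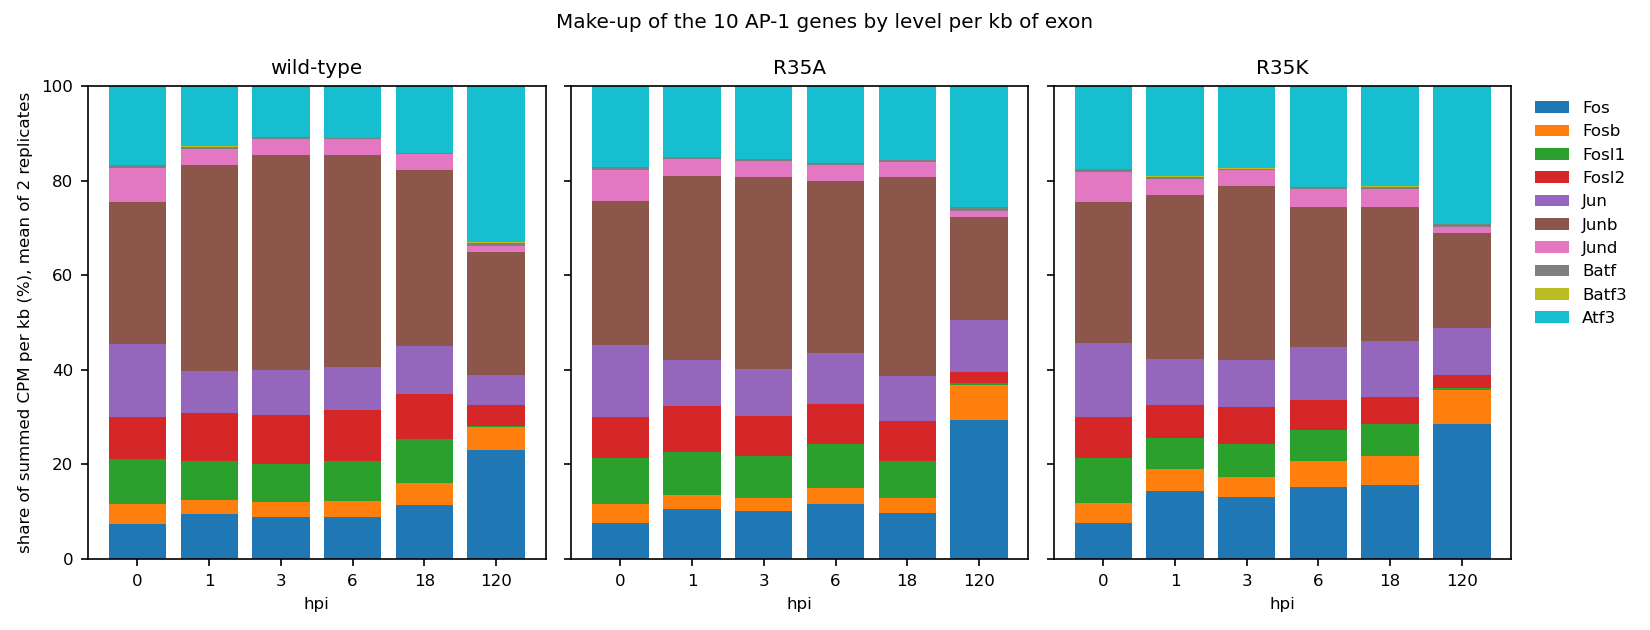
Share of each AP-1 gene in the summed CPM per kb of exon of the 10 genes (percent, mean of 2 replicates), by hpi, in wild-type, R35A and R35K cells. Junb is the widest band from 0 to 18 hpi, and at 120 hpi Fos and Atf3 have widened in each construct.

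The early rises ran beside the rise in feeder RNA, and each called rise at 1 hpi but those of Batf3 was set against it. Per 1000 CPM of feeder marker sum, Fos in wild-type cells was at 29.2 and 27.8 CPM at 0 hpi and 27.0 and 25.9 CPM at 1 hpi. Junb was at 116 and 109 CPM at 0 hpi and 117 and 119 CPM at 1 hpi, and Fosl2 at 142 and 140 CPM and then 114 and 116 CPM. In wild-type cells the ratios of Fos and Fosl2 were thus lower at 1 hpi than at 0 hpi, and that of Junb slightly higher. In R35K cells Fos went from 31.3 and 28.4 CPM to 72.7 and 75.7 CPM, Fosb from 46.6 and 43.5 CPM to 63.1 and 63.0 CPM, and Atf3 from 64.0 and 62.3 CPM to 89.1 and 91.5 CPM per 1000 CPM of feeder marker sum, higher in both replicates. The R35K ratio of Jun went from 85.3 and 81.3 CPM to 69.98 and 68.59 CPM and that of Jund from 18.6 and 17.2 CPM to 12.0 and 12.4 CPM, both lower, while Fosl2, at 147 and 140 CPM and then 144 and 148 CPM, overlapped. In R35A cells Fos went from 29.6 and 28.5 CPM to 36.7 and 37.7 CPM, and Atf3 from 60.2 and 60.6 CPM to 48.3 and 48.5 CPM. The R35A ratio of Fosb went from 42.7 and 41.6 CPM to 30.1 and 28.6 CPM. That of Fosl1 went from 31.6 and 32.8 CPM to 28.2 and 27.1 CPM, and that of Fosl2 from 139.0 and 134.2 CPM to 139.5 and 141.1 CPM. For Junb the ratio was higher at 1 hpi in both mutants. It went from 114 and 116 CPM to 176 and 174 CPM in R35K cells, and from 111 and 118 CPM to 134 and 136 CPM in R35A cells. At 120 hpi, when the feeder sum was lowest, Fos was at its highest in all constructs. What part feeder RNA has in the early changes was not tested.

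Fosl1 (Fra-1), a Fos protein common in fibroblasts and epithelial cells, was the one member that fell at 120 hpi, as the feeder markers did. It was at 57.1 and 59.3 CPM at 0 hpi, 74.2 and 74.6 CPM at 1 hpi, 120 and 117 CPM at 18 hpi and 14.0 and 12.0 CPM at 120 hpi in wild-type cells. In R35A cells it was at 60.6 and 63.8 CPM, 110 and 107 CPM, 108 and 119 CPM, and 17.5 and 17.1 CPM. In R35K cells it was at 58.6 and 61.5 CPM, 95.2 and 89.0 CPM, 103 and 106 CPM, and 11.02 and 12.4 CPM. It fell from 18 to 120 hpi by 3.31 ± 0.07 in wild-type, 2.82 ± 0.06 in R35A and 3.21 ± 0.07 in R35K cells. Over the 18 group means of log2(CPM + 0.1), Fosl1 and the feeder marker sum had r = 0.943, against −0.365 to −0.89 for the other 9 members. Over the 15 groups before 120 hpi it was 0.642 for Fosl1, under the 0.887 of Fosl2 and the 0.799 of Junb. With the macrophage marker sum, r over these 15 groups was 0.825 for Fosl1, 0.768 for Fosl2 and 0.872 for Junb. Over all 18 groups that of Fosl1 was −0.341. The groups share the time course, and the source of the Fosl1 RNA was not tested. Per 1000 CPM of feeder marker sum, Fosl1 was at 31.8 and 32.4 CPM at 0 hpi, 20.1 and 20.2 CPM at 1 hpi and 77.6 and 78.3 CPM at 120 hpi in wild-type cells. The ratio did not rise in the mutants, at 31.6 and 32.8 CPM and then 30.7 and 30.8 CPM in R35A cells, and at 32.4 and 32.0 CPM and then 23.4 and 31.2 CPM in R35K cells at 0 and 120 hpi. Ccdc85b, antisense to Fosl1, covers 57.2% of its exon bases. It had 146 to 333 counts before 120 hpi and 102 to 169 counts at 120 hpi, where Fosl1 had 125 to 226 counts.

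**Figure D5:**
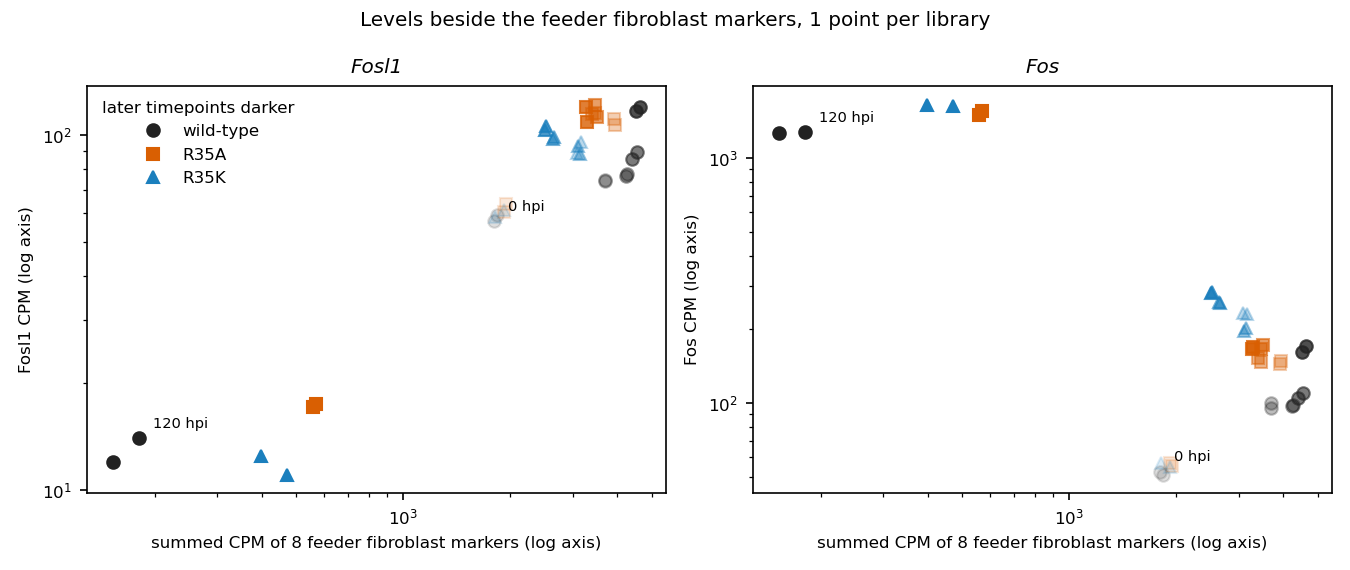
CPM of Fosl1 (left) and Fos (right) against the summed CPM of 8 feeder fibroblast markers (both log axes), 1 point per library, with wild-type circles, R35A squares, R35K triangles and later timepoints darker. The 120 hpi libraries have the lowest marker sum, with Fosl1 at its lowest and Fos at its highest.

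The other genes of the pathway moved as follows in wild-type, R35A and R35K cells at 1 hpi. Over all genes tested, 10.7%, 18.3% and 15.5% were called higher and 9.27%, 18.9% and 17.4% lower at 1 hpi, and 23.1%, 24.2% and 25.4% higher and 40.2%, 39% and 38.5% lower at 120 hpi. Of 14 immediate early genes, 9, 9 and 12 were called higher and none lower. In wild-type cells the 2 with the largest change were Ier3, an apoptosis regulator (1.93 ± 0.05), and the zinc finger factor Egr2 (1.79 ± 0.09). Egr2 was at 8.01 ± 0.66 CPM at 0 hpi and 27.3 ± 0.61 CPM at 1 hpi (SD, n = 2). At 120 hpi 14, 9 and 12 were higher, led in wild-type cells by Egr2 (4.53 ± 0.07) and Zfp36, which destabilises cytokine mRNAs (3.90 ± 0.04). Of 12 genes listed as AP-1 targets, 10 of 12, 11 of 12 and 10 of 11 tested were higher at 1 hpi. Mmp12, a macrophage elastase, rose from 12.3 ± 0.97 to 282 ± 3.76 CPM (4.54 ± 0.05), and Plaur, the urokinase receptor, by 1.57 ± 0.06. At 120 hpi 10, 10 and 9 were higher and 1 was lower in each, with Mmp12 at 7.82 ± 0.05 and Tnf at 6.13 ± 0.07 in wild-type cells.

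Of 8 MAP kinase phosphatases, which switch off the kinases upstream of Fos and Jun, 4, 3 and 2 were higher at 1 hpi, and 0, 1 and 1 lower. Dusp6 (1.04 ± 0.04) and Dusp1 (0.90 ± 0.04) led in wild-type cells, and at 120 hpi Dusp1 had risen by 3.45 ± 0.04 while Dusp10 was lower (−2.73 ± 0.07). At 120 hpi 5, 4 and 4 of the phosphatases were higher and 1, 3 and 2 lower. Of 15 genes for kinases, serum response factor or Elk factors, 0, 1 and 3 were higher and 1, 3 and 3 lower at 1 hpi. In wild-type cells the 1 was Map2k6 (−0.88 ± 0.14), a p38 kinase activator, and at 120 hpi Mapk3 (1.71 ± 0.04) and Map2k1 (1.31 ± 0.04) had the largest changes, with 5, 3 and 4 of the list higher and 2, 4 and 2 lower. Of 12 other bZIP genes 2, 3 and 3 were higher and 0, 1 and 0 lower at 1 hpi, Jdp2 (0.79 ± 0.10) and Nfil3 (0.62 ± 0.07) in wild-type cells. At 120 hpi Nfil3 was higher by 3.86 ± 0.06 and Batf2, with no counts at 0 hpi, was at least 27.7-fold higher than the floor. In all, 5, 4 and 4 of these genes were higher and 2, 4 and 4 lower at 120 hpi. Of 9 heat shock genes edgeR called none higher at 1 hpi in any construct. At an unadjusted p under 0.05 there were 0, 1 and 0 higher and 7, 8 and 8 lower, and Hspa1a was called lower in wild-type cells (−0.86 ± 0.19). At 120 hpi 6, 7 and 7 were lower, with Hspb1 (−6.25 ± 0.33) and Hspa1b (−3.25 ± 0.22) leading in wild-type cells.

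The genes most like each member were found by Pearson's r over the 18 group means of log2 CPM, among 17276 other genes. Wdfy2 (r = 0.995), Dab2 (0.993) and Sat1 (0.993) were nearest to Fos, Mertk (0.984), Fndc3a (0.983) and Slc31a2 (0.983) to Fosb, and Lgals8 (0.993), Sowahc (0.991) and Gm17024 (0.991) to Atf3. Nectin4 (0.991), Slc31a2 (0.99) and Vps8 (0.989) were nearest to Jun, Lamp2 (0.985), Igf2bp3 (0.982) and Cers6 (0.981) to Junb, and Rapgef2 (0.956), Agpat5 (0.953) and Mif4gd (0.946) to Jund. Rhou (0.994), Bag3 (0.993) and Spsb1 (0.993) were nearest to Fosl1, and 1700016P03Rik (0.967), Vegfa (0.959) and Ndel1 (0.958) to Fosl2. Gm44751 (0.993), Ttc7 (0.992) and Stxbp2 (0.991) were nearest to Batf, and Bach1 (0.974), Tpd52 (0.971) and Gm2a (0.971) to Batf3. All of these values come from the same libraries of 1 time course.

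The 10 genes lie at chr12:85473890-85477273 (Fos), chr7:19302696-19310051 (Fosb), chr19:5447547-5455946 (Fosl1), chr5:32135801-32157842 (Fosl2), chr4:95049034-95052222 (Jun), chr8:84974484-84978718 (Junb), chr8:70698949-70700616 (Jund), chr12:85686669-85709087 (Batf), chr1:191097847-191108945 (Batf3) and chr1:191170296-191218039 (Atf3) in mm10, by GENCODE vM21. Jun and Jund have 1 exon block each, and the others 2 to 5.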

How the data were processed

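RNA-seq counts and log2 values of 36 libraries (18 groups of 2 replicates) were used. The authors sequenced stranded poly(A) libraries with 50 bp single-end reads, aligned them to mm10 with STAR 2.5.0a and deposited whole-number counts per gene for 40354 genes, without normalization. Normalization was with DESeq2 1.14.1. The deposited log2 values of 19067 genes equal the log2 of the count divided by a size factor, plus 1, in 100% of cases (tolerance 1e-06), and served as a check only. The annotation release and the strand setting are not given in the sources used here. The number of unused columns was 0.

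Counts were fitted with edgeR 4.0.16 (TMM, filterByExpr, quasi-likelihood F test) under R 4.3.3. Wild-type and R35A libraries, 24 in number, formed 1 fit (16988 genes), the 12 R35K libraries another (16434), and all 36 the last (17277) for comparisons with R35K. The study's methods give 0 hpi as reference and the 1.5-fold threshold, and p was adjusted here. SE is the log2 change over the square root of F. Folds against groups at or under 3 counts per library are lower bounds. CPM was scaled over 36 libraries, whose scaling moved the median change at 120 hpi by 0.127 in wild-type, 0.122 in R35A and 0.1 in R35K cells (log2) from the fits used for the changes. Genes named from the other lists are the 2 with the largest change among those called in wild-type cells at 1 and 120 hpi in each list. The members and lists were chosen with earlier results of these data known.

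No replicate pair agreed within sampling noise, but the excess in the median gene was small. Its squared difference was 1.085 times (R35A, 6 hpi) to 2.328 times (R35K, 120 hpi) that of sampling alone. The common coefficient of variation between replicates was 3.17% in the fit of 24 libraries and 3.49% in that of 12. The SE and p given here measure this spread, and whether it includes that between mice is not known. In simulated data, 80.1% of 196 changed genes among 16176 were recovered for R35A against wild-type cells in the change from 0 hpi, with 2 false calls. Recovery was 88.3% for the change from 0 hpi in R35K cells and 76.9% for R35K against wild-type cells in that change. The simulation gave every gene the same dispersion and held no difference in feeder RNA. Its planted changes were of at least 2-fold, so recovery of changes near the 1.5-fold threshold was not measured. The alternatives were DESeq2 1.42.0, its size factors in edgeR, other filters, fold thresholds and fits, unadjusted p, a replicate block, and leaving out each library. The B cell marker list is not reported here.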

Additional observations from a re-analysis of the deposited data

Results flagged for a closer look

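Whether a member's change from 0 hpi differed between constructs was tested as interaction terms in edgeR, and the largest called difference of each member is given for each pair of constructs, as log2 values. No group has enough samples for a test of single outlying libraries.

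R35A cells differed from wild-type cells in Atf3 at 3 hpi (0.80 ± 0.06, adjusted p = 2.87e-17), Batf at 18 hpi (1.28 ± 0.29, adjusted p = 0.000659), Jun at 120 hpi (0.60 ± 0.05, adjusted p = 2.75e-13) and Fosl2 at 120 hpi (−0.99 ± 0.05, adjusted p = 4.75e-24). The Jun difference dropped under the fold threshold when DESeq2's size factors were used (0.58) or the compared groups were fitted alone (0.53).

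R35K cells differed from wild-type cells in Fosb at 1 hpi (1.21 ± 0.06, adjusted p = 4.54e-24), Jun at 1 hpi (0.70 ± 0.06, adjusted p = 1.94e-15), Fos at 6 hpi (1.15 ± 0.06, adjusted p = 1.45e-23), Atf3 at 6 hpi (1.29 ± 0.05, adjusted p = 6.23e-27), Jund at 6 hpi (0.69 ± 0.12, adjusted p = 7.52e-06), Batf at 18 hpi (1.34 ± 0.30, adjusted p = 0.00023) and Fosl2 at 120 hpi (−0.65 ± 0.05, adjusted p = 3.98e-17). The Jund difference at 6 hpi was 0.58 without wild-type replicate 1.

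R35K cells differed from R35A cells in Fos (0.76 ± 0.06, adjusted p = 8.27e-16) and Fosb (1.00 ± 0.06, adjusted p = 4.1e-20), both at 18 hpi. In all of these but Fosl2 the change was higher in the first-named construct, and the Fosl2 difference from wild-type cells was negative in both mutants.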

How the results depend on the processing

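Calls are counted over members and timepoints, of 50 for a change from 0 hpi or a difference in it, 40 for consecutive timepoints and 60 for direct comparisons. The counts were 25 (wild-type), 35 (R35A) and 38 (R35K) for the change from 0 hpi, 12, 8 and 8 for consecutive timepoints, 11 for R35A against wild-type cells directly, and 6 (R35A against wild-type), 19 (R35K against wild-type) and 7 (R35K against R35A) for differences in the change. They serve to compare settings only, and add up timepoints that share libraries. The share of all genes called also differs by construct, with 10.7%, 18.3% and 15.5% called higher at 1 hpi, and is given above by timepoint. With a 2-fold threshold the R35A count was 22, the direct count 3, and the differences 1, 9 and 0. With no fold threshold the wild-type count was 39, consecutive counts were 27, 20 and 24, the direct count 38, and the differences 32, 35 and 27. Under every other alternative run, each count was within 1.5 times its value above. The replicate block gave 34 in place of 35 in R35A cells, the Batf3 call at 1 hpi, and changed no other call. Samples with the same replicate number did not deviate together in general, with a median r of −0.00835 over 153 pairs of groups and 8259 genes. Single pairs of groups ran from −0.584 to 0.376, with 27 above 0.1, so some groups shared deviations of either sign. Leaving out 1 library gave 24 to 26, 32 to 37 and 37 to 43 for the change from 0 hpi, 12 to 13, 7 to 10 and 8 to 9 for consecutive timepoints, 10 to 12 directly, and 5 to 7, 17 to 22 and 6 to 8 for the differences. No called member changed direction under any alternative. DESeq2's size factors moved the median of all genes by 0.158 in wild-type, 0.129 in R35A and 0.136 in R35K cells at 120 hpi, by 0.116 in wild-type cells at 18 hpi, and by −0.106 in R35K against wild-type cells at 18 hpi. Batf3 did not pass the filter in some fits of the compared groups alone and has no value there. With 2 replicates a group and few counts, depth limits Batf3 and Batf.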
